A study of Mus musculus with 4 samples.

Results

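The genes described here are 2 ligands of the vascular endothelial growth factor (VEGF) family, 2 of the family's receptors and a set of endothelial genes: Vegfa, Vegfc, Kdr, Flt1, Pecam1, Eng, Vwf, Etv2, Tek and Esam. Every probe that the array's RefSeq accession ties to 1 of these 10 genes was taken, which gave 14 of the 41174 probes other than controls and 41 of 43379 such spots per array. Of these, 13 probes were among the 28079 that were well above background in both samples of at least 1 group and were tested. The mouse D3 embryonic stem cell line was transfected with siRNA, seeded as embryoid bodies and left to differentiate without LIF, the cytokine that holds mouse stem cells in the pluripotent state. The 4 groups were cells with siRNA against Pnpla6 at 96 h, control cells at 96 h, cells with that siRNA at 24 h, and control cells at 24 h, with 2 samples in each. Pnpla6 encodes neuropathy target esterase, a phospholipase, and neither the treatment of the control cells nor the origin of the samples of a group (separate cultures or not) is given in the labels. If they share a culture, the p-values measure a technical spread.

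Each array carried silenced and control RNA of a time side by side, in Cy3 and Cy5. In replicate 1 of each time the silenced RNA was in Cy3, and in replicate 2 it was in Cy5. Between 62.5% and 68.7% of probes were well above background in a channel, and no spot was saturated. The probe of Pnpla6 gave log2 ratios of silenced to control RNA of 0.12 and -0.11 at 96 h (adjusted p = 0.962, limma) and of -0.73 and -1.002 at 24 h (adjusted p = 2.29e-13, limma). The silenced gene was thus lower at 24 h on both arrays, and at 96 h its ratios lay on both sides of 0.

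VEGF-A is the main growth factor of blood vessels and VEGF-C that of lymphatic vessels. Kdr (VEGFR2) is the receptor that passes on most of the VEGF-A signal, Flt1 (VEGFR1) binds VEGF-A and can act as a decoy, and transcription of Vegfa is raised in low oxygen by the HIF factors. Etv2 is the ETS transcription factor that commits mesoderm to the blood and endothelial lineage, where it switches on Kdr and Tek; in embryoid bodies endothelial cells form from such Kdr-positive mesoderm. Because bulk RNA was measured, fewer cells of a type and less RNA per cell cannot be told apart.

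RefSeq's promoter table (build GRCm38.p6, 250 bases before to 50 after a start) held 8 promoters of 7 of the 10 genes among its 32851. Those of Vegfa, of Eng and of Etv2 are shown because the effect of silencing on these genes differed between the times, in both directions. The first is the outer of the listed starts of Vegfa, at chr17:46032328-46032627 on the minus strand; Eng lies at chr2:32646345-32646644 on the plus strand and Etv2 at chr7:30635803-30636102 on the minus strand. Capitals mark matches on either strand to GGGCGG, a core that Sp1 binds, and to CAGGAA, a form of the ETS core, which reads TTCCTG on the other strand.
Vegfa: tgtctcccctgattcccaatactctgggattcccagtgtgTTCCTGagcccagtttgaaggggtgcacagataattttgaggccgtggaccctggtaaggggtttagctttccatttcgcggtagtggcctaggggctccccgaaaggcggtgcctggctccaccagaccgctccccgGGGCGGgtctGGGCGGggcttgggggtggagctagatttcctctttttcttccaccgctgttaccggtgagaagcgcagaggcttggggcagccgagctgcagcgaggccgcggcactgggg
Eng: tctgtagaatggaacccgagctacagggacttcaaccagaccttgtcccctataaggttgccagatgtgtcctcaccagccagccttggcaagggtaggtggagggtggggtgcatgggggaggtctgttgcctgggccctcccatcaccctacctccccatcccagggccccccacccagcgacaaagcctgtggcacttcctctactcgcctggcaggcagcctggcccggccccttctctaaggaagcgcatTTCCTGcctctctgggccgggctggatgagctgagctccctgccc
Etv2: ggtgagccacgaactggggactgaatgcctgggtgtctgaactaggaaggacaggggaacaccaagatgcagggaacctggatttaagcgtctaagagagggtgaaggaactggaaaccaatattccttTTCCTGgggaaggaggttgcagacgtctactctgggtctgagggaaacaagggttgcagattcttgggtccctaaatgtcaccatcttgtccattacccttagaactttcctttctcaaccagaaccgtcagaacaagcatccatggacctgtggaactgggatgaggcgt
GGGCGG had 2 matches in the Vegfa promoter and none in those of Eng and Etv2, and 35.7% of all promoters in the table held it. CAGGAA had 1 match in each of the 3, against 30.6% of all promoters. ACGTG, a form of the core of the hypoxia response element, had no match in the outer Vegfa promoter and 1 in that of its other listed start. Of all promoters 19.6% held it. Other forms of this core, and sequence outside these windows, were not searched, so no match here does not show that a gene lacks the element. CCGGAA, another ETS core, matched in that of Kdr alone among the 8, and in 14.9% of all. None of these motifs overlapped another in the sequences shown.

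At 96 h, silenced cells had more RNA of both VEGF ligands and of 4 endothelial genes and less of Etv2 than control cells. All 3 probes of Vegfa rose, by 0.35 to 0.47 on the log2 scale, together with Vegfc, Pecam1, Eng, Tek and 1 of 2 probes of Vwf. Etv2 fell by 0.36. The VEGF receptors Kdr and Flt1, and Esam, did not pass. In counts, 8 of the 13 tested probes were higher and 1 was lower at an adjusted p under 0.05 (limma), where 12.9% of all tested probes passed, 6.24% as higher and 6.68% as lower. With median centring in place of loess, 1387 probes of the whole array were higher and 857 lower at 96 h, against 1753 and 1877 with loess. The median of the 13 log2 ratios was 0.25, against 0.00145 over all tested probes. The members were chosen with earlier results of these data known, and 3 of the 8 higher probes are of 1 gene, Vegfa. Shares and medians of the members, here and below, are therefore no test of enrichment.

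**Figure D1:**
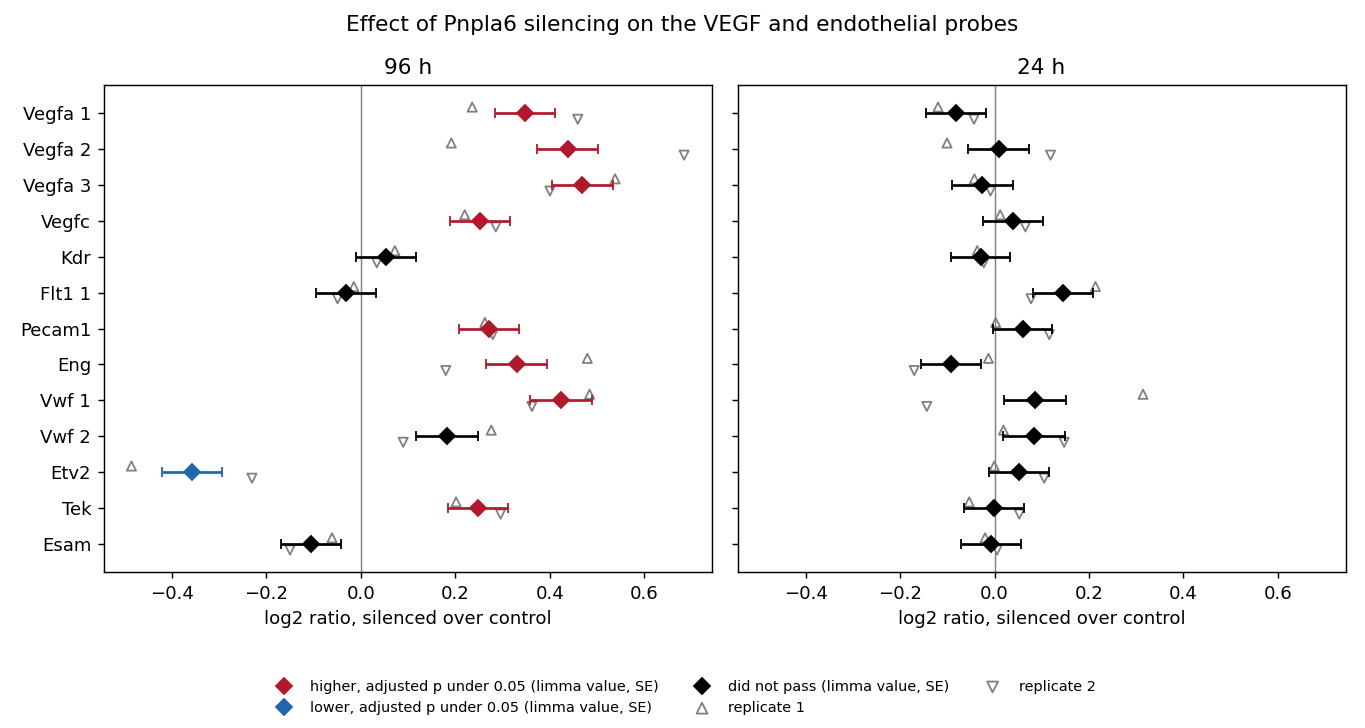
The log2 ratio of silenced to control RNA (x axis) is plotted for the 13 tested probes (y axis) at 96 h, left, and at 24 h, right; open triangles are the 2 arrays, and diamonds with bars are limma's value and its SE. At 96 h 10 probes lie above 0 on both arrays and 3 below 0 on both, and 8 and 1 pass, while none passes at 24 h.

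Vegfa is read by 3 probes, numbered from the brightest (A_52_P638895, A_52_P249424 and A_51_P482552). Its probe 1 had log2 levels of 10.25 and 10.51 in silenced cells at 96 h, against 10.01 and 10.05 in control cells. Probe 2 had 9.67 and 9.96 in silenced cells and 9.48 and 9.27 in control cells. Probe 3 had 9.42 and 9.44 in silenced cells and 8.88 and 9.04 in control cells. On all 3 probes both silenced samples lay above both control samples. The groups at 96 h were also apart for Kdr, the brighter Flt1 probe and Esam, which did not pass. How many of all tested probes have groups that do not overlap was not counted, so such statements, here and below, only describe the samples. Levels are on a normalized log2 scale in arbitrary units, which cannot be set against each other between probes.

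The ratios within the arrays of 96 h were 0.24 and 0.46 for Vegfa probe 1, a value of 0.35 ± 0.06 (SE; adjusted p = 7e-05, limma). Probe 2 gave 0.19 and 0.68, a value of 0.44 ± 0.06 (SE; adjusted p = 1.53e-06, limma). Probe 3 gave 0.54 and 0.40, a value of 0.47 ± 0.06 (SE; adjusted p = 2.58e-07, limma). These values correspond to 1.27-, 1.35- and 1.38-fold, so that the probes differed less from each other than the 2 arrays did on probe 2. The SE rests mostly on a spread shared by all tested probes, with 45.02 prior degrees of freedom against 1 residual. It is thus nearly the same for every member and, with its p-value, does not show the gap between the 2 arrays of a probe. Probe 3 was spotted 10 times per array, and all 10 spots lay above 0 on both arrays of 96 h. Their SD was 0.04 on replicate 1 and 0.06 on replicate 2, below the gap of the array means.

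**Figure D2:**
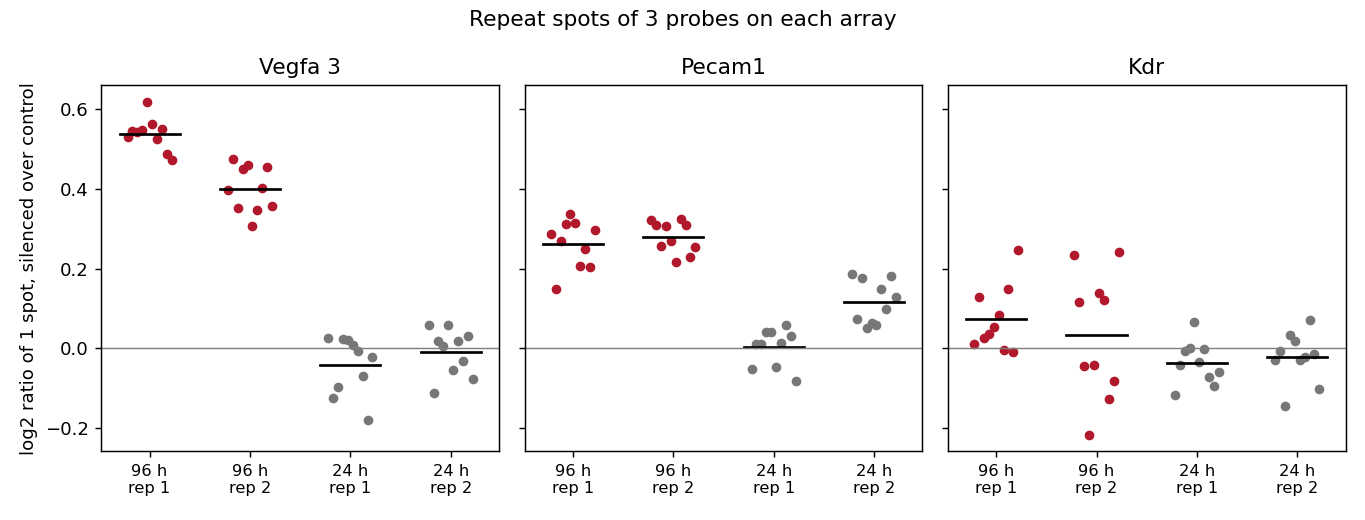
Each point is the log2 ratio of silenced to control RNA (y axis) at 1 of 10 spots of Vegfa probe 3, of Pecam1 and of Kdr, on each of the 4 arrays (x axis, red 96 h, grey 24 h), and lines are the means of the 10 spots. Vegfa and Pecam1 lie above 0 at every spot of 96 h, and spots of Kdr lie on both sides of 0.

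Vegfc (probe A_51_P433870), the ligand of the lymphatic receptor, had levels of 10.82 and 10.83 in silenced cells at 96 h and 10.60 and 10.54 in control cells. Its ratios were 0.22 and 0.29, which gave 1.19-fold (log2 0.25 ± 0.06 SE, adjusted p = 0.0038, limma). Both arrays showed nearly the same ratio, and the groups did not overlap.

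Kdr (A_51_P316553) had levels of 6.16 and 6.11 in silenced cells at 96 h and 6.08 and 6.07 in control cells. In silenced cells 7 and 4 of its 10 spots were well above background on the 2 arrays, and in control cells 2 and 3 of 10. A probe counted as well above background where over 0.5 of its spots were, so Kdr was measured on 1 of 2 arrays in silenced cells and had only a bound in control cells. The difference did not pass (log2 0.05 ± 0.06 SE, adjusted p = 0.676, limma). Flt1 had levels of 7.17 and 7.15 on its brighter probe (A_51_P398723) in silenced cells and 7.18 and 7.20 in control cells, a log2 ratio of -0.03 ± 0.06 (SE; adjusted p = 0.82, limma). Its other probe (A_52_P520859) was well above background in 1 of 8 channels, a control sample at 96 h, and was not tested.

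Among the endothelial genes, Pecam1 (A_51_P400868), an adhesion molecule of endothelial cells that pluripotent mouse cells also make, had levels of 8.65 and 8.63 in silenced cells at 96 h and 8.39 and 8.36 in control cells. Its ratios of 0.26 and 0.28 gave 1.21-fold (log2 0.27 ± 0.06 SE, adjusted p = 0.0019, limma), and all 10 spots lay above 0 on both arrays. Of 8 pluripotency markers 5 rose and 1 fell at 96 h. By their brightest probe 7.86% of all genes passed as higher and 7.63% as lower. The 2 ratios were 0.01 and -2.11 for Pou5f1, the marker that fell, and -0.84 and 1.26 for Dppa5a, counted as rising. The mean log2 level of the 8 markers was 13.87 and 13.83 in silenced cells and 13.81 and 13.75 in control cells. The part of these markers in the ratio of Pecam1 was not tested. Of the members that rose, Pecam1 had the smallest gap between its 2 ratios, and its groups did not overlap.

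Eng (A_51_P268563), the TGF-beta co-receptor endoglin, had levels of 9.79 and 9.58 in silenced cells and 9.31 and 9.40 in control cells at 96 h. Its ratios were 0.48 and 0.18, or 1.26-fold (log2 0.33 ± 0.06 SE, adjusted p = 0.000156, limma). The groups did not overlap, although the 2 ratios differed by more than the estimate's SE.

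Vwf encodes von Willebrand factor, the clotting protein that endothelial cells store. Its probe 1 (A_51_P103397) had levels of 8.86 and 8.74 in silenced cells at 96 h and 8.37 and 8.38 in control cells, with ratios of 0.48 and 0.36 and a 1.34-fold difference (log2 0.42 ± 0.07 SE, adjusted p = 3.76e-06, limma). Its probe 2 (A_51_P103406) had 7.03 and 6.78 in silenced cells and 6.76 and 6.69 in control cells, and with ratios of 0.28 and 0.09 it just missed the threshold (log2 0.18 ± 0.07 SE, adjusted p = 0.0554, limma). Both probes pointed the same way, and on neither did the groups overlap.

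Tek (A_51_P130374), the angiopoietin receptor TIE2, had levels of 6.82 and 6.94 in silenced cells at 96 h and 6.62 and 6.64 in control cells. Its ratios were 0.20 and 0.30, or 1.19-fold (log2 0.25 ± 0.06 SE, adjusted p = 0.00444, limma). It was a dim probe, with signals over local background of 49 and 88 in silenced cells and 56 and 36 in control cells in different dyes. The authors' deposited table gave log2 ratios of 0.65 and 0.77.

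Etv2 (A_51_P137560) was the member that fell. Its levels were 6.87 and 6.94 in silenced cells at 96 h and 7.36 and 7.17 in control cells, and its ratios were -0.49 and -0.23, or 1.28-fold lower (log2 -0.36 ± 0.06 SE, adjusted p = 4.43e-05, limma). The authors' deposited table gave -0.59 and -0.61. Both silenced samples lay below both control samples. Esam (A_51_P448325), an adhesion molecule of endothelial junctions, had 6.54 and 6.46 in silenced cells and 6.61 and 6.61 in control cells, and its ratio of -0.11 ± 0.06 (log2, SE) did not pass (adjusted p = 0.323, limma).

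The 2 ratios of each of the 13 probes shared their sign at 96 h, as did those of 51.4% of all tested probes. In the authors' deposited table the ratios of the brighter Flt1 probe (0.135 and -0.15) and of Esam (0.014 and -0.53) differed in sign. The calls at 96 h rest on the model, which leaves 1 residual degree of freedom per probe. Without the term for dye, which coincides with the replicate number, 0 of the 13 passed where 0.534% of all probes did, and 9 had an unadjusted p under 0.05 (limma). The count was also 0 with the ratios of the authors' deposited table, with 10 unadjusted p under 0.05, and with any of the 4 arrays left out, the second slide's array of 96 h included (4 to 9 with an unadjusted p under 0.05, limma). With an offset of 16 in the background correction 7 of the 13 passed, 6 as higher and 1 as lower, and Vegfc and Pecam1 no longer did. Over the whole array fewer probes passed in each of these settings too, so the losses were not particular to the members. The closing section gives those counts over all probes. The fits with an array left out also dropped the dye term, so they do not separate the loss of an array from the loss of that term.

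At 24 h, none of the 13 probes passed, where 0.406% of all tested probes did. Their log2 ratios ran from -0.09 for Eng to 0.15 for the brighter Flt1 probe, with adjusted p from 0.548 to 0.999 (limma). Flt1 alone had an unadjusted p under 0.05 (limma), with levels of 6.97 and 6.82 in silenced cells and 6.76 and 6.74 in control cells. Those groups did not overlap, and 8 of 13 probes had the same sign on both arrays, against 38.5% of all. The probe of Vwf that rose at 96 h had ratios of 0.31 and -0.14 at 24 h, the widest spread of the members there. Pecam1 lay above 0 at 7 and at 10 of 10 spots, with mean ratios of 0.00243 and 0.12, and did not pass (adjusted p = 0.953, limma).

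The effect of silencing at 96 h less that at 24 h was tested in the same model. It passed for 6 of the 13 probes, 5 with a higher value at 96 h and 1 with a lower, where 6.91% of all tested probes passed, 2.80% as higher and 4.11% as lower. The difference was 0.43, 0.43 and 0.50 for the 3 probes of Vegfa (adjusted p = 0.000947, 0.00116 and 0.000125, limma), 0.42 for Eng (adjusted p = 0.00116, limma) and 0.34 for the brighter Vwf probe (adjusted p = 0.0154, limma). Etv2 gave -0.41 (adjusted p = 0.00165, limma). For Vegfc, Pecam1 and Tek, which passed at 96 h and not at 24 h, the difference itself did not pass, with values of 0.21, 0.21 and 0.25 (adjusted p = 0.162, 0.17 and 0.0865, limma). Over the whole array the difference also passed for fewer probes in each of the settings named next. Without the dye term 0 of the 28079 tested probes passed, so the loss of calls was not particular to the members. The dye term was also dropped in the fits with an array left out. All 6 calls were lost without the dye term, with an offset of 16 in the background correction, with the ratios of the authors' deposited table and with any array left out, where 3 to 8 of the 13 had an unadjusted p under 0.05 (limma).

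The differences of the members between the times reached 1.78 on the log2 scale in silenced cells and -1.61 in control cells, against 0.47 at most for silencing. In silenced cells Vegfa, Eng and Tek were higher at 96 h, and Vegfc, Kdr, Etv2 and Esam were lower. In control cells Vegfa, Eng and Flt1 were higher, and Vegfc, Kdr, Pecam1 and Esam were lower. Of the 13 probes 5 passed as higher and 4 as lower in silenced cells, where 37.8% of all tested probes passed (18.0% as higher and 19.8% as lower). The counts were likewise 5 and 4 in control cells, where 37.0% passed (17.8% as higher and 19.1% as lower). The time comparisons set channels of different arrays against each other. They share the arrays of the silencing comparisons, so that the time effect in silenced cells less that in control cells is the difference already tested.

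**Figure D3:**
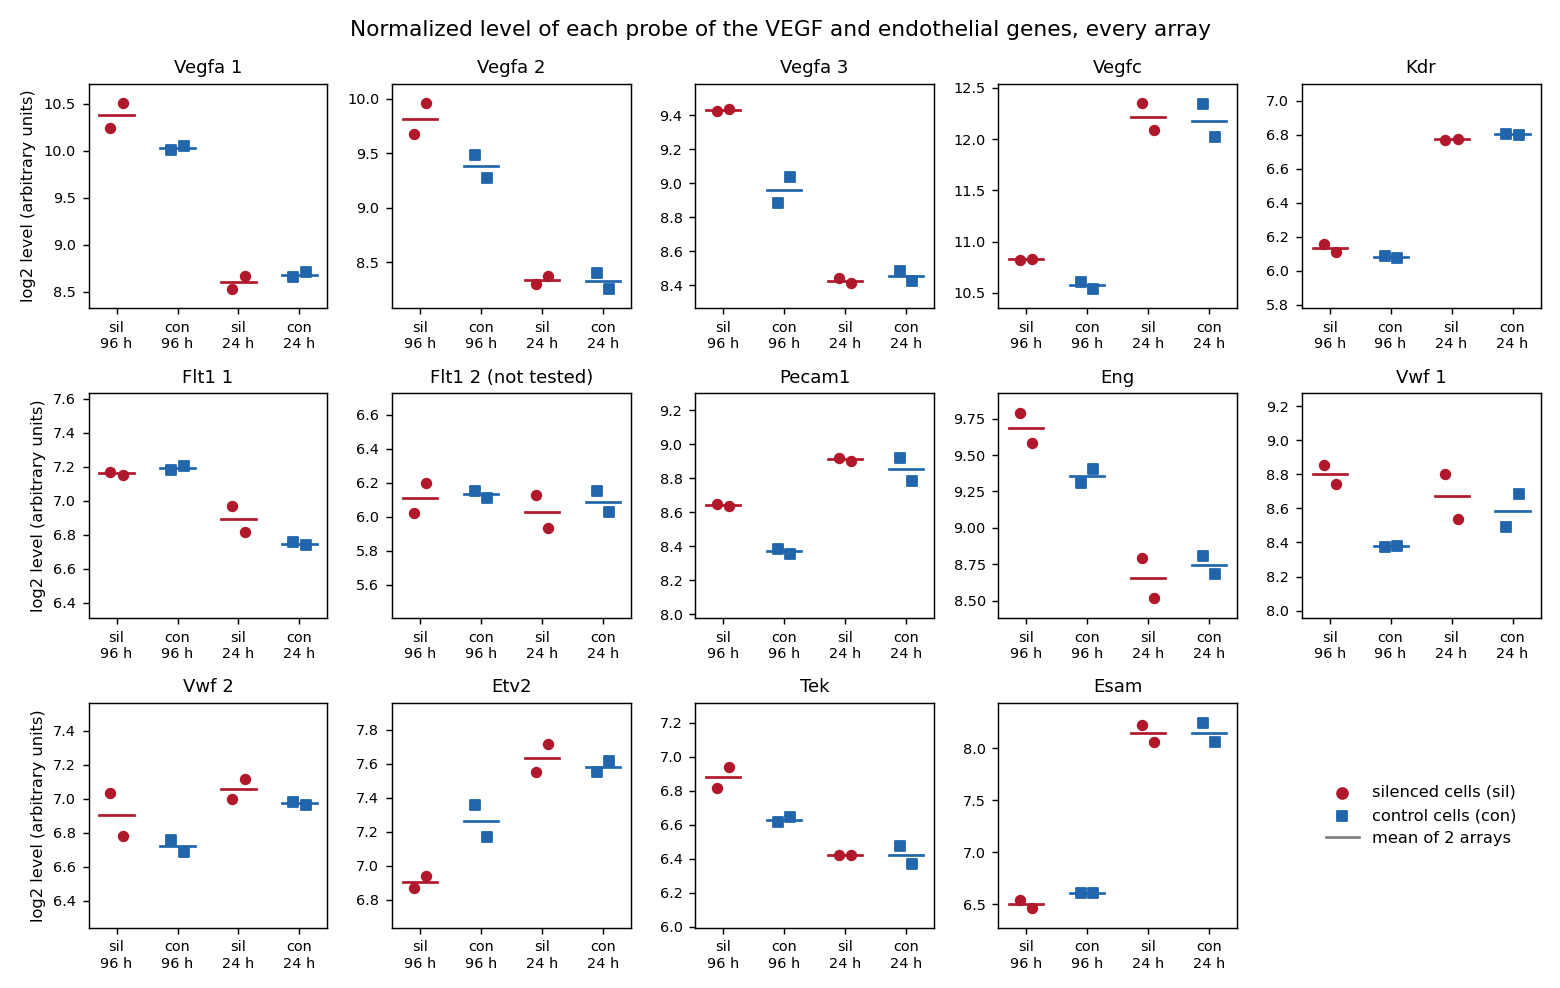
Normalized log2 levels (y axis, a scale of its own for each probe) of all 14 probes are shown in each of the 4 groups (x axis): silenced (sil) and control (con) cells at 96 h and at 24 h. Points are the 2 samples and lines their means; Vegfa lies higher at 96 h than at 24 h on all 3 probes, and Vegfc and Esam lie lower.

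Vegfa probe 1 averaged 10.38 at 96 h and 8.60 at 24 h in silenced cells, a 3.43-fold difference (log2 1.78 ± 0.11 SE, adjusted p = 3.51e-05, limma). In control cells it averaged 10.03 at 96 h and 8.68 at 24 h, or 2.55-fold (log2 1.35 ± 0.11 SE, adjusted p = 0.000105, limma). Both samples of 96 h were above both of 24 h in each kind of cell. Probe 2 gave log2 differences of 1.48 in silenced and 1.05 in control cells, and probe 3 gave 1.00 and 0.51, all past the threshold (adjusted p from 0.00018 to 0.00909, limma). The probes thus ranged from 0.51 to 1.35 in control cells for the same gene, while their effects of silencing lay within 0.35 to 0.47.

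Vegfc moved the other way. Its levels in silenced cells were 10.82 and 10.83 at 96 h and 12.35 and 12.08 at 24 h, or 2.62-fold lower at 96 h (log2 -1.39 ± 0.11 SE, adjusted p = 0.000107, limma). In control cells they were 10.60 and 10.54 at 96 h and 12.34 and 12.02 at 24 h, or 3.04-fold lower (log2 -1.61 ± 0.11 SE, adjusted p = 5.27e-05, limma). All samples of 96 h lay below all samples of 24 h.

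For the receptors, Kdr had levels of 6.16 and 6.11 at 96 h and 6.77 and 6.77 at 24 h in silenced cells (log2 -0.64 ± 0.09 SE, adjusted p = 0.00106, limma), with 1 of 2 arrays of 96 h well above background. In control cells it averaged 6.08 at 96 h, where it was not well above background on either array, and 6.80 at 24 h. That is 1.65-fold lower at 96 h (log2 -0.72 ± 0.09 SE, adjusted p = 0.000606, limma), an estimate that uses the bound at 96 h as the level. An offset of 16 gave log2 differences of -1.06 in silenced and -1.21 in control cells, so the size of this fall depends on the background correction while the call does not. Flt1 (brighter probe) had 7.17 and 7.15 at 96 h and 6.97 and 6.82 at 24 h in silenced cells, and did not pass (log2 0.27, adjusted p = 0.0616, limma), though it did in 4 of 10 alternatives. In control cells it had 7.18 and 7.20 at 96 h and 6.76 and 6.74 at 24 h and rose (log2 0.44 ± 0.10 SE, adjusted p = 0.00884, limma). Whether the Flt1 effects differ was tested by the difference of silencing effects, which did not pass (-0.18, adjusted p = 0.286, limma).

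Of the endothelial genes, Esam had the widest fall, with 6.54 and 6.46 at 96 h and 8.22 and 8.06 at 24 h in silenced cells (log2 -1.64 ± 0.11 SE, adjusted p = 4e-05, limma). In control cells it had 6.61 and 6.61 at 96 h and 8.24 and 8.05 at 24 h (log2 -1.54 ± 0.11 SE, adjusted p = 4.62e-05, limma). The difference between these falls did not pass (-0.10, adjusted p = 0.632, limma). Eng was 2.05-fold higher at 96 h in silenced cells (log2 1.03 ± 0.11 SE, adjusted p = 0.000404, limma) and 1.53-fold higher in control cells (log2 0.61 ± 0.11 SE, adjusted p = 0.00471, limma). Etv2 was 1.66-fold lower at 96 h in silenced cells (log2 -0.73 ± 0.11 SE, adjusted p = 0.00157, limma), and in control cells its value of -0.32 did not pass (adjusted p = 0.0518, limma), though it did in 6 of the 10 alternatives run, with adjusted p from 0.00179 to 0.0616. Etv2 and Eng thus lay on opposite sides of 0 in both kinds of cell.

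Pecam1 had a log2 difference of -0.27 in silenced cells (adjusted p = 0.0566, limma; past the threshold in 4 of 10 alternatives) and fell by 0.48 in control cells (adjusted p = 0.00588, limma). Tek rose by 0.46 in silenced cells (adjusted p = 0.00516, limma), or 0.69 with an offset of 16, and had 0.21 in control cells (adjusted p = 0.104, limma). Neither probe of Vwf passed in either kind of cell, with values from -0.25 to 0.13. Every member call between the times held under each of the alternatives run that kept the probe, the slide as a block and the arrays of the first slide alone included.

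Among 10 endothelial markers, 5 of which are members, Cdh5, which encodes VE-cadherin, and Emcn were not well above background in any group. On both arrays 7 of the 10 were above it in silenced cells at 96 h, 6 in control cells at 96 h, 7 in silenced cells at 24 h and 8 in control cells at 24 h. The mean log2 level of the 10 was 6.85 and 6.81 in silenced cells and 6.72 and 6.74 in control cells at 96 h, and between 7.28 and 7.32 at 24 h. Pluripotency markers, 8 of 8, were well above background in all 4 groups.

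None of the other tested genes of the VEGF and TIE pathways passed at 96 h. Of the other VEGF ligands and receptors 4 of 6 were tested and none passed, 2 of them with an unadjusted p under 0.05, with Nrp2, a co-receptor, at 0.16 (adjusted p = 0.0916, limma) and Vegfb at 0.13 (adjusted p = 0.195, limma). Of 3 tested angiopoietin and TIE genes none passed, 1 of them with an unadjusted p under 0.05, with Angpt2, a ligand of TIE2, at 0.17 (adjusted p = 0.0699, limma; 0.32 and past the threshold with an offset of 16, and 0.64 in the authors' deposited table) and Tie1 at -0.08 (adjusted p = 0.486, limma). In the list of endothelial surface and junction genes 3 of 11 were higher and none lower, where 15.5% of all genes passed by their brightest probe, 7.86% as higher and 7.63% as lower. Mmrn2, a matrix protein of vessels, rose by 0.52, the junction protein Jam2 by 0.28 and the guidance receptor Robo4 by 0.20 on the log2 scale (adjusted p = 1.83e-08, 0.00118 and 0.0247, limma). The 2 ratios of Robo4 were 0.38 and 0.03, and with an offset of 16 neither Robo4 nor Jam2 passed (adjusted p = 0.147 and 0.071, limma).

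Among 9 tested endothelial and blood transcription factors Lyl1 rose by 0.36 and the ETS factor Elk3 by 0.25, and Ets1 fell by 0.35 (adjusted p = 6.43e-05, 0.00614 and 7.62e-05, limma). The 2 ratios of Elk3 were 0.12 and 0.38, and it did not pass with an offset of 16 (adjusted p = 0.125, limma). In the Notch and arteriovenous list, 1 of 8 was higher and 2 were lower: the receptor Notch4 rose by 0.32, the netrin receptor Unc5b fell by 0.48, and Efnb2, a mark of arteries, fell by 0.27 (adjusted p = 0.00025, 1.51e-07 and 0.00179, limma). Efnb2 did not pass with an offset of 16 or with median centring (adjusted p = 0.0529 and 0.0862, limma). The medians of the 3 lists were 0.12 for surface genes, 0.05 for transcription factors and 0.07 for Notch genes, against 0.00189 over all genes. Of all genes 7.86% passed as higher and 7.63% as lower at 96 h, by their brightest probe.

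At 96 h 7.86% of all genes passed as higher and 7.63% as lower, by their brightest probe. The lists were chosen with earlier results of these data known, so their counts are no test of enrichment. In the hypoxia list, which holds HIF subunits and their targets, 6 of 15 tested genes were higher at 96 h and none was lower, with a median of 0.06. The genes with the smallest p were Ndrg1 at 0.60, the collagen prolyl hydroxylase P4ha1 at 0.38, Ankrd37 at 0.35 and the oxygen sensor Egln1 at 0.28 (adjusted p = 4.47e-10, 1.49e-05, 7.62e-05 and 0.00143, limma). The 2 arrays gave ratios of 0.57 and 0.19 for P4ha1 and of 0.15 and 0.42 for Egln1, which did not pass with an offset of 16 (adjusted p = 0.0763, limma). Slc2a1, Ldha, Pgk1, Pdk1 and Car9 of the same list did not pass, with values from -0.07 to 0.04. For each of these genes the 2 arrays differed in sign. The ratios were -0.37 and 0.37 for Slc2a1, -0.47 and 0.32 for Ldha and -0.14 and 0.23 for Pgk1, so these values are means of unlike arrays. In the list of TGF-beta and BMP signalling in endothelial cells, where Eng acts, none of 11 was higher and 5 were lower, with a median of -0.13. The BMP targets Id1, Id3 and Id2 fell by 0.63, 0.60 and 0.40, and the receptor Bmpr2 fell by 0.25 (adjusted p = 1.14e-10, 4.54e-10, 7.97e-06 and 0.0041, limma). Bmpr2 did not pass with an offset of 16 or with median centring (adjusted p = 0.0631 and 0.101, limma). Without the dye term, 1 hypoxia gene, 2 TGF-beta and BMP genes and none of the surface, transcription factor and Notch genes passed. With an offset of 16 the counts were 3 hypoxia genes, all higher, 3 TGF-beta and BMP genes, all lower, and 1 surface gene.

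**Figure D4:**
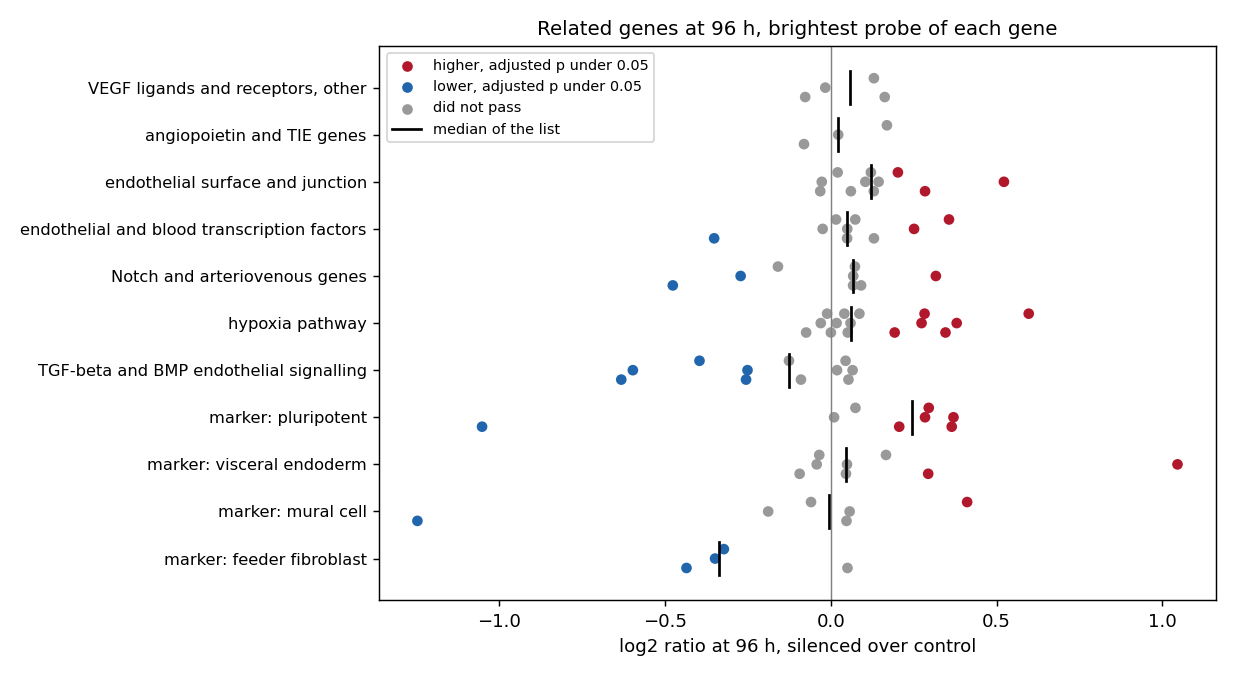
Each point is limma's log2 ratio of silenced to control RNA at 96 h (x axis) for the brightest probe of a gene, by list (y axis), with the list's median as a black line. Hypoxia genes that passed all lie above 0 (6), and TGF-beta and BMP genes that passed all lie below 0 (5). Over all genes 7.86% passed as higher and 7.63% as lower.

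Markers of other cells that embryoid bodies can hold moved at 96 h too, and their part in the members' ratios was not tested. Over all genes 7.86% passed there as higher and 7.63% as lower, by their brightest probe. Of the visceral endoderm markers, a tissue that makes Vegfa in the embryo, 2 of 8 tested rose, Cubn by 1.05 and Amn by 0.29, with ratios of 0.42 and 0.17 for Amn (adjusted p = 2.34e-17 and 0.000891, limma); the mean log2 level of all 11 was 6.73 and 6.71 in silenced cells and 6.58 and 6.59 in control cells, while Ttr and Apoa1 were not well above background. Of the mural cell markers, Pdgfrb rose by 0.41 and Tagln fell by 1.25 on the log2 scale (adjusted p = 3.26e-06 and 2.13e-20, limma), and the mean of all 7 was 9.05 and 8.99 in silenced cells and 9.18 and 9.15 in control cells. Among fibroblast markers 3 of 4 tested fell, Dcn by 0.44 (ratios of -0.61 and -0.26), Col1a2 by 0.35 and Thy1 by 0.32 (adjusted p = 4.72e-06, 7.03e-05 and 0.000228, limma), and the mean of all 7 was 6.93 and 6.93 in silenced cells and 7.13 and 7.06 in control cells. No early mesoderm or primitive blood marker passed; 3 and 0 of them had an unadjusted p under 0.05 (limma). Of the pluripotency markers Esrrb, Sox2 and Zfp42 rose by 0.37, 0.36 and 0.30 (adjusted p = 2.31e-05, 3.74e-05 and 0.000675, limma). The 2 ratios of Zfp42 were 0.47 and 0.12, and it did not pass with an offset of 16 (adjusted p = 0.0593, limma). Pou5f1 had ratios of 0.01 and -2.11 and Dppa5a of -0.84 and 1.26 on the 2 arrays, and without the array of the second slide, which gave -2.11 and 1.26, both signs turned. The split was not confined to that slide. At 24 h, with both arrays on the first slide, the ratios were 1.575 and -0.21 for Pou5f1 and -0.92 and 1.14 for Dppa5a. For each of these genes the same replicate number, and so the same dye orientation, gave the higher ratio at both times.

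At 24 h no gene of these pathways passed, where 0.312% of all genes passed by their brightest probe. Among the markers of other cells Pou5f1 alone passed at 24 h, with ratios of 1.57 and -0.21 (adjusted p = 1.03e-09, limma), which differ in sign. Between the times, 9 of 15 hypoxia genes were higher and 1 lower in silenced cells, where 43.4% of all genes passed (22.4% as higher and 21.0% as lower). In control cells 8 were higher and 2 lower, where 42.0% passed (21.6% and 20.5%). Bnip3, a mitophagy receptor induced in low oxygen, was higher at 96 h by 1.95 in silenced and 1.70 in control cells (adjusted p = 1.39e-05 and 2.02e-05, limma). Of 11 surface genes 4 were higher and 4 lower in silenced cells, and 3 and 5 in control cells. Icam2, an adhesion molecule, was lower at 96 h by -2.61 and -2.67 (adjusted p = 2.95e-05 and 2.4e-05, limma), so it fell further than any member in either kind of cell.

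Over the 8 channel levels, the genes whose pattern was most like Vegfa probe 1 were Slc38a4, Gkap1 and Vmac, with Pearson correlations of 0.998 each, of 11955 genes ranked. For Kdr they were Ino80e, Bmp8a and Defa5, with 0.999 each. The genes ranked were well above background in all 8 channels. Kdr itself was not at 96 h, where it was so on 1 of 2 arrays in silenced cells and on 0 of 2 in control cells. The 8 values share 4 arrays and 2 times.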

How the data were processed

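RNA of Pnpla6-silenced and control D3 cells was measured on 4 two-colour Agilent whole mouse genome arrays, 2 at 96 h and 2 at 24 h; 200 ng of total RNA was labelled, per the labels' protocols. Per the file headers, the authors ran version 10.7.1.1 of Agilent's Feature Extraction; the submitters' processing notes also name limma. In the deposited scanner files each spot has its signal and local background (intensity, arbitrary units) and a log10 ratio of Cy5 over Cy3. The authors' table of the whole series gives log10 ratios, silenced over control, equal to those of the scanner files within 4.97e-06 once the sign is turned on arrays with control RNA in Cy5. These were turned into log2 ratios here as an alternative. No p-value from the deposited files was used.

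Here, median spot and background signals were read with R 4.3.3 and limma 3.58.1, corrected with normexp (offset 50) and put through loess within each array. Of 45018 spots, 1639 controls had weight 0 and 1 non-uniform spot was left out. Spots of a probe were averaged. Levels per channel came from Aquantile normalization. Symbols came from RefSeq accessions, which named 24375 probes of 17016 genes; the array files use build mm8 and no probe coordinates are given. Silencing effects were fitted to the 4 log2 ratios with a mean per time and a dye term (1 residual and 45.02 prior degrees of freedom). Times were compared with lmscFit over 8 channels (intraspot correlation 0.894). Tests were two-sided, and a call needs a Benjamini-Hochberg adjusted p under 0.05 over all probes tested.

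Dye and replicate number coincide, so the dye term is also a replicate block. Log2 ratios of replicates 1 and 2 correlated across all tested probes at 0.16 at 96 h and at -0.413 at 24 h.

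The members and gene lists were chosen with earlier results of these data known. Named are all probes of the members, Pnpla6, up to 4 genes per list with the smallest p among those that passed or up to 2 where none did, genes at background, and the 3 genes most like Vegfa and Kdr. The hypoxia genes given as not passing, and Dppa5a, were named after their values were seen. Lists use the brightest probe of a gene. The number of arrays limits the precision. The scripts were tested on simulated data. Alternatives were the offset, median centring, the authors' ratios, no filter on dim probes, 1 probe per gene, no dye term, each array left out, quantile normalization of single channels and, chosen after seeing the data, the slide as a block.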

Additional observations from a re-analysis of the deposited data

Results flagged for a closer look

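The effect of silencing differed between 96 h and 24 h for 6 probes in the test of the difference itself (limma, adjusted over all probes tested). The log2 difference was 0.43 for both Vegfa probe 1 and Vegfa probe 2, 0.50 for Vegfa probe 3, 0.42 for Eng and 0.34 for Vwf probe 1, and -0.41 for Etv2. The adjusted p ran from 0.000125 for Vegfa probe 3 to 0.0154 for Vwf (limma). Of these, Vegfa probe 3, which has 10 spots per array, gave all 10 above 0 on both arrays of 96 h, against 4 and 6 of 10 on the arrays of 24 h.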

How the results depend on the processing

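Of 635 values of single member probes set against an alternative, 515 stayed on the same side of the threshold, 98 no longer passed and 22 newly passed; none of those that passed changed sign, and 9 that did not pass changed sign. With an offset of 16, 1409 of all probes passed for silencing at 96 h and 1 did at 24 h, and 461 had a difference of the effects past the threshold (103 higher and 358 lower), and 0 member probes passed for the difference. Median centring gave 2244, 52 and 983. The authors' deposited ratios gave 0 in each of these 3 comparisons (limma; 4876, 1923 and 3754 at an unadjusted p under 0.05) and 0 member probes. Without the dye term, that is with no replicate block, 150 probes passed at 96 h, and 0 did either at 24 h or in the difference of the effects (limma; 2662, 271 and 1672 at an unadjusted p under 0.05), and 0 member probes; deviations from the time means correlated at 0.677 between same-numbered arrays, which share dye orientation too, so this settles no pairing. Leaving out each array in turn, with the dye term dropped, gave 43 to 206 probes at 96 h, 0 in every case at 24 h and 0 to 3 in the difference, and 0 member probes in each (limma; at an unadjusted p under 0.05, 4 to 9, 0 to 1 and 3 to 5). The counts for the time comparisons stayed within 1.5 times the reported 10607 in silenced and 10380 in control cells, from 8127 to 15880 and from 7924 to 15293. Dim probes limit the rest: Kdr, Tek and Flt1 lay close to background at one time or both, and the signals of Esam over local background at 96 h were 31.5 and 42.5 in silenced cells and 53.5 and 35.5 in control cells.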
